A study of Mus musculus with 12 samples.

Results

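The genes described here were 10 genes that mark mast cells, chosen by their symbols and found as 10 rows among the 49315 genes of the count table. They were the subunits of the high-affinity IgE receptor Fcer1a and Ms4a2, the receptor Kit, the transcription factor Gata2, the histamine-forming enzyme Hdc, the carboxypeptidase Cpa3, the chymases Cma1 and Mcpt4, and the tryptases Tpsb2 and Tpsab1. All 10 passed the filter on low counts, which needs a level in 3 libraries. Fcer1a and Ms4a2 reached the filter's level of 0.458 CPM (the usual unit of counts scaled to the library total) in 0 of the flox vehicle libraries, Tpsab1 in 1 of them, and the other members in every library.

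RNA was sequenced from epididymal white adipose tissue (eWAT) of 12 mice, with 1 library per mouse and 3 mice in each of 4 groups. Flox mice (miR-181a2b2flox/flox) carried loxP sites around the Mir181a2b2 locus, and KO mice (miR-181a2b2-/-) lacked it in all cells. All mice were fed a diet with 60% fat for 12 weeks, and within each genotype they received weekly intraperitoneal vehicle or methotrexate (MTX, an antifolate used against inflammation) at 1 mg/kg. The groups are called flox vehicle, KO vehicle, flox MTX and KO MTX, and libraries carry the replicate number of their label. The age of the mice is not given in the sources used here, and the tissue holds adipocytes, stroma, vessels and immune cells together.

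Mast cells are long-lived tissue immune cells that arise from bone marrow progenitors and mature under stem cell factor, the ligand of Kit. Antigen that crosslinks IgE on the receptor FceRI, or small cationic peptides that bind Mrgprb2, makes them release granules with histamine, serglycin, carboxypeptidase A3, chymases and tryptases. They occur in fat around vessels, and Gata2 and Mitf are needed for their genes.

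The deleted locus encodes 2 microRNAs with the same seed, shown here because this seed is what could pair with the messages of the members. The mature sequences are those of RefSeq for GRCm38, 5′ to 3′, with the seed (bases 2 to 8) in capitals, at chr2:38852741-38852763 and chr2:38853845-38853868 on the plus strand.
mmu-miR-181a-5p: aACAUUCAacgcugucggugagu
mmu-miR-181b-5p: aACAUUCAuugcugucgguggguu
The letters sought were those complementary to this seed, or to the seed without its last base and followed by an A. They were absent from the 3′ untranslated regions annotated for 9 of the 10 members. Tpsab1 held them in 1 of 2 transcripts, at the first base after the stop codon, in the run TGAATGTgagccagatc, where capitals mark the match. Such letters occurred in 22% of the 21020 genes with an annotated 3′ untranslated region, and in 3.77% of the 6738 genes whose longest region had up to 500 bases. The longest region had 185 bases in Cpa3, 203 in Cma1, 206 in Fcer1a, 294 in Hdc and 328 in Mcpt4. A match or its absence is a description of letters only.

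Counted reads ranged from 19495310 to 23976469 per library, and 3 counts, the limit that a count of 0 allows, corresponded to 0.118 to 0.188 CPM, for counting error only. The precursors at the targeted locus, Mir181a-2 and Mir181b-2, were at 0 counts in all libraries but 1, flox MTX replicate 4 with 2 counts of Mir181a-2, so the deletion could not be checked. The 12 adipocyte markers summed to between 11000 and 56400 CPM, led by Fabp4 in every group, and matched the labelled tissue. Transcripts of epididymis (21 genes, led by Crisp1) summed to between 1600 and 13400 CPM in the flox vehicle libraries, against 6.1 to 18 CPM in KO vehicle, 5.5 to 533 CPM in flox MTX and 2.19 to 14.3 CPM in KO MTX libraries. Testis germ cell genes summed to between 250 and 595 CPM in flox vehicle libraries and to between 13.4 and 45.9 CPM elsewhere. Every contrast with the flox vehicle group therefore also contrasts libraries with and without these transcripts, and their part in the results was not tested.
Of the mast cell genes themselves, 2 libraries stood apart, which was seen after the values were computed. KO MTX replicate 3 held the highest value of 9 of the 10 members, all but Gata2. Flox MTX replicate 4 held the lowest value of 4 members, Fcer1a, Gata2, Tpsb2 and Tpsab1. For the contrasts of MTX groups, values without them are given beside those with all libraries. Because both were picked by the members' own values, such refits describe their weight and carry no test.

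Without MTX, the eWAT of KO mice held more mast cell message than that of flox mice. The transcripts of all 5 granule proteases, both FceRI subunits and Gata2 were higher, between 1.84-fold for Gata2 and 8.29-fold for Tpsb2, while Kit and Hdc did not pass the test. Fcer1a and Ms4a2 passed the filter on low counts only through KO libraries, where they were high, so their difference is no support. The other 8 members also passed through flox libraries, Tpsab1 with 1 flox vehicle and 2 flox MTX libraries. Of these 8 members 6 were called, all higher. These 6 of 8 members compare with 31.7% of the 18702 genes tested that were called in either direction, and with 13.9% called higher (edgeR's quasi-likelihood test, with adjustment by Benjamini-Hochberg to p below 0.1, and at least a 1.5-fold difference). The median log2 fold change was 2.46 over all members, 2.46 over these 8 and -0.06 over all genes tested. In the same 6 called members every KO vehicle library lay above every flox vehicle library, an order found in 22.8% of all genes tested. Fcer1a and Ms4a2 had this order too. In RNA of whole tissue, more mast cells and more of these messages per cell cannot be told apart. The exact permutation test of 3 mice against 3 gave p = 0.1 for each of the 8 called members, Fcer1a and Ms4a2 included (two-sided, log2(CPM + 1)), the smallest p that its 20 arrangements allow.
The count of 8, which includes Fcer1a and Ms4a2, rested on few mice. It dropped to 3 when flox vehicle replicate 3 was left out, to 3 when KO vehicle replicate 3 was, and to 4 when flox vehicle replicate 4 was. Of all genes, 5924 were called with all libraries and 4640 to 6828 with 1 left out, fewest without KO vehicle replicate 3. With the marker genes of epididymis and testis taken out before normalization, which left 18678 genes, the count was again 8, with 5905 of all genes called. This drops only listed genes and cannot remove other RNA of these tissues, so it does not test their part. Averaged over both treatments, the contrast of KO with flox mice again called 8 members, all higher. Of the 8 members that also passed the filter through flox libraries it called 6, against 28.5% of all genes called and 12.5% called higher. There the count of all called members was 8 in each of the 12 fits that left out 1 library. It was 7 without KO MTX replicate 3 and flox MTX replicate 4 together, where Ms4a2 was not called (1.39, adjusted p = 0.167). Fits that left out 1 library called 4603 to 6223 of all genes, against 5331 with all libraries. These member counts include Fcer1a and Ms4a2, whose difference is no support.

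**Figure D1:**
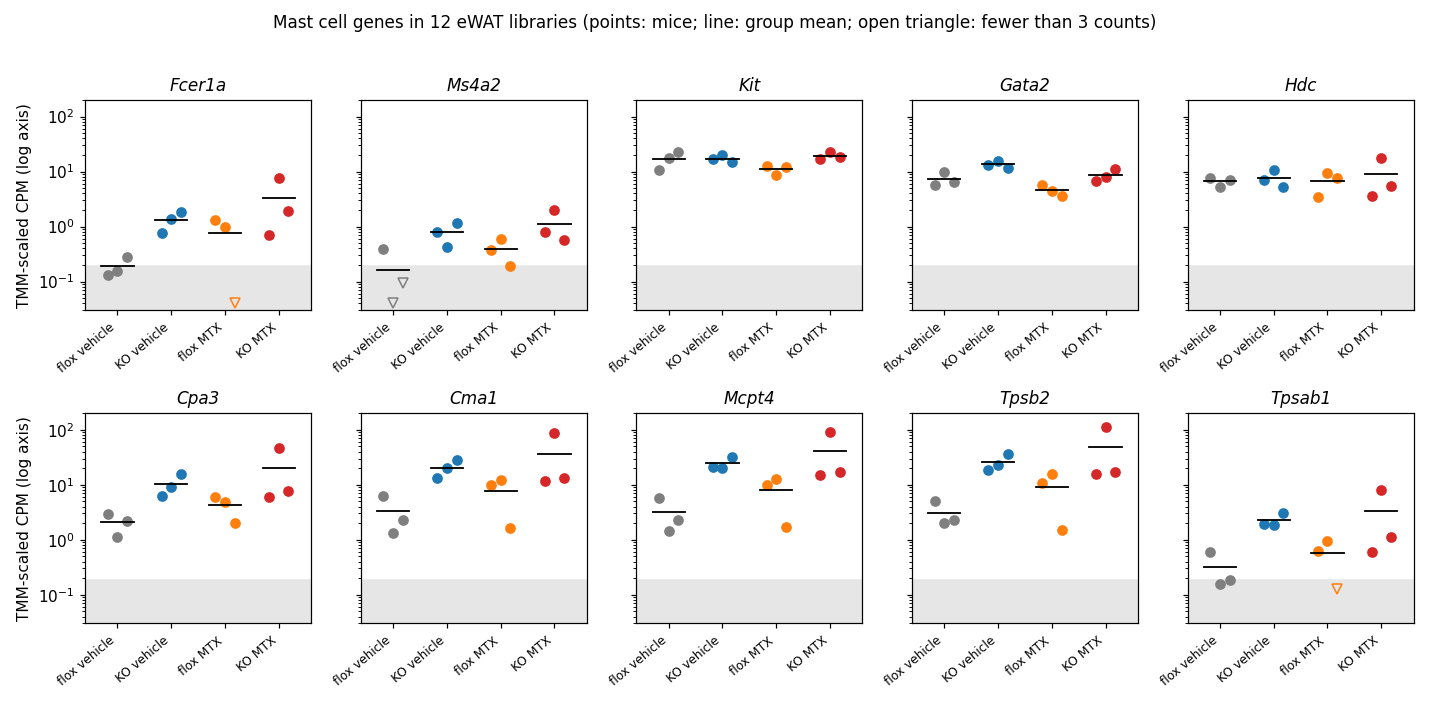
Level of each mast cell gene in each of the 12 libraries, as TMM-scaled CPM on a log axis, by group. Points are mice, black lines are group means, open triangles are libraries with fewer than 3 counts (a value of 0 is drawn at the foot of the axis), and the grey band reaches up to the highest of the libraries' limits for a count of 0, 0.188 CPM. The proteases and FceRI subunits lie higher in KO vehicle than in flox vehicle libraries, Kit and Hdc overlap, and 1 KO MTX library stands above the others.

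FceRI, the receptor that binds IgE, is built from an alpha chain (Fcer1a), a beta chain (Ms4a2) and a gamma chain (Fcer1g) that macrophages and other myeloid cells also use. Fcer1a (ENSMUSG00000005339, chr1:173221284-173227214 of GRCm38, minus strand) is the chain that contacts IgE and is largely limited to mast cells and basophils in mice. Its level in flox vehicle mice was 0.13 CPM in replicate 1, 0.157 in replicate 3 and 0.277 in replicate 4, on counts of 3, 4 and 6. It stood at 0.756, 1.4 and 1.83 CPM in KO vehicle replicates 1, 2 and 3. Under MTX it stood at 1.32, 1 and 0 CPM in flox replicates 1, 2 and 4 and at 0.696, 7.54 and 1.88 CPM in KO replicates 2, 3 and 4. The vehicle groups did not overlap, while the MTX groups did, with a flox library at 0 counts and a KO library above every other. The log2 fold change of KO over flox mice was 2.79 under vehicle (SE 1.11, adjusted p = 0.0804) and 2.08 under MTX (SE 0.97, adjusted p = 0.215). Ms4a2 (ENSMUSG00000024680, chr19:11615523-11623719, minus strand), which amplifies the signal of the receptor, was the least abundant member, with counts between 0 and 46. It stood at 0.391, 0 and 0.0923 CPM in flox vehicle, at 0.806, 0.423 and 1.17 CPM in KO vehicle, at 0.378, 0.591 and 0.188 CPM in flox MTX and at 0.783, 1.99 and 0.568 CPM in KO MTX libraries. Its vehicle groups did not overlap either, but the highest flox value (0.391 CPM) came close to the lowest KO value (0.423 CPM). The log2 fold change was 2.29 (SE 0.9, adjusted p = 0.0777) under vehicle. Fcer1g stood at 21.1 ± 8.84 CPM (SD, n = 3) in flox vehicle and 175 ± 69.2 CPM in KO vehicle libraries, a log2 fold change of 3.05 (adjusted p = 0.00375). Fcer1g also rose with MTX in flox mice, to 76.4 ± 51.1 CPM (adjusted p = 0.0311), a comparison in which Fcer1a had 2.05 (SE 1.12, adjusted p = 0.221).

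Kit (ENSMUSG00000005672, chr5:75574916-75656722, plus strand), the receptor of stem cell factor, followed another course than the proteases. It stood at 10.8, 17.7 and 22.6 CPM in flox vehicle and at 17, 19.8 and 14.9 CPM in KO vehicle libraries, with a log2 fold change of 0.01 (95% interval -0.55 to 0.58). Under MTX it stood at 12.7, 8.82 and 12 CPM in flox and at 16.6, 22.7 and 18.7 CPM in KO mice. All 3 KO libraries lay above the flox libraries there, with a log2 fold change of 0.79 (95% interval 0.22 to 1.36, adjusted p = 0.121). The interaction of genotype and MTX for Kit was 0.78 (SE 0.37, 95% interval -0.02 to 1.58, adjusted p = 0.347). Kitl, its ligand, was higher in KO mice under vehicle, with 65.1 ± 4.75 against 33 ± 6.45 CPM (log2 fold change 0.98, adjusted p = 0.00301). Kitl also stood higher in all 3 KO MTX libraries, 72.1 ± 3.43 against 45.7 ± 5.34 CPM, at an adjusted p of 0.104.

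Gata2 (ENSMUSG00000015053, chr6:88193891-88207032, plus strand), a transcription factor of mast cells that endothelial and progenitor cells also express, differed by genotype and by treatment. It stood at 5.81, 9.64 and 6.51 CPM in flox vehicle, at 13.3, 15.5 and 11.7 CPM in KO vehicle, at 5.81, 4.36 and 3.63 CPM in flox MTX and at 6.7, 7.93 and 11 CPM in KO MTX libraries. The KO libraries lay above the flox libraries under either treatment, by 0.88 on the log2 scale under vehicle (SE 0.27, adjusted p = 0.0319) and by 0.89 under MTX (adjusted p = 0.115). The MTX libraries lay below the vehicle libraries in flox mice, where the nearest values both round to 5.81 CPM, with -0.67 (adjusted p = 0.111), and in KO mice, with -0.66 (adjusted p = 0.561). Such an order was found in 17.5% of all genes tested in flox mice and in 9.55% in KO mice. Averaged over genotypes, Gata2 fell by 0.66 with MTX (SE 0.19, adjusted p = 0.0521). It was the only member called in that contrast, in which 14.5% of all genes tested were called and 10.1% were called lower. Gata2 was no longer called there without flox vehicle replicate 3 (adjusted p = 0.117), without KO vehicle replicate 1 (0.111) or 2 (0.136), or without KO MTX replicate 2 (0.118) or 3 (0.114). Without KO MTX replicate 3 and flox MTX replicate 4 together it was not called either (0.151), and Fcer1a was (1.28, adjusted p = 0.0944). Endothelial markers (10 genes) also differed between the groups and their sums are given with those of other cell types, but their part in the level of Gata2 was not tested.

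Hdc (ENSMUSG00000027360, chr2:126593667-126619299, minus strand), histidine decarboxylase, makes histamine and is also used by other myeloid cells and neurons. It stood at 7.77, 5.35 and 7.11 CPM in flox vehicle and at 7.1, 10.7 and 5.2 CPM in KO vehicle libraries, which overlapped. Under MTX it stood at 3.4, 9.54 and 7.5 CPM in flox and at 3.57, 17.7 and 5.55 CPM in KO mice, again with overlap. Its log2 fold changes ran from 0.02 to 0.39 over the 4 contrasts between pairs of groups, with 95% intervals that reached from -1.21 to 1.61. Without KO MTX replicate 3 the value of KO over flox mice under MTX went from 0.39 to -0.58 (adjusted p = 0.576).

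The 5 granule proteases were all higher in KO mice under vehicle. Cpa3 (ENSMUSG00000001865, chr3:20215620-20242181, minus strand), carboxypeptidase A3, stood at 2.99, 1.14 and 2.17 CPM in flox vehicle and at 6.3, 8.98 and 15.5 CPM in KO vehicle libraries. It stood at 5.95, 4.95 and 2 CPM in flox MTX and at 5.87, 46.4 and 7.6 CPM in KO MTX libraries. The vehicle groups did not overlap (log2 fold change 2.29, adjusted p = 0.0471), while KO MTX replicate 2 lay just under flox MTX replicate 1. Cma1 (ENSMUSG00000022225, chr14:55941451-55944675, minus strand) is the alpha-chymase. Cma1 stood at 6.25, 1.3 and 2.26 CPM in flox vehicle, at 13.2, 20 and 28 CPM in KO vehicle, at 9.78, 12.1 and 1.63 CPM in flox MTX and at 11.7, 85.8 and 13.2 CPM in KO MTX libraries. Flox vehicle replicate 1 was the highest of its group, and the KO vehicle libraries were still above it (log2 fold change 2.64, adjusted p = 0.0521).
Mcpt4 (ENSMUSG00000061068, chr14:56059629-56062313, minus strand), the main beta-chymase of connective tissue mast cells, stood at 5.64, 1.46 and 2.31 CPM in flox vehicle and at 20.8, 20.3 and 32.2 CPM in KO vehicle libraries. It stood at 9.87, 12.5 and 1.69 CPM in flox MTX and at 14.9, 90.4 and 16.7 CPM in KO MTX libraries. Mcpt4 did not overlap between genotypes under either treatment, with log2 fold changes of 2.96 (SE 0.86, adjusted p = 0.0242) and 2.33 (SE 0.82, adjusted p = 0.133).
Tpsb2 (ENSMUSG00000033825, chr17:25366305-25369098, plus strand), a secreted tryptase, stood at 4.99, 2.01 and 2.31 CPM in flox vehicle and at 18.7, 22.7 and 35.8 CPM in KO vehicle libraries. It stood at 10.8, 15.4 and 1.5 CPM in flox MTX and at 15.7, 114 and 17.4 CPM in KO MTX libraries. Tpsb2 showed the largest difference of the members, 3.05 (SE 0.91, 95% interval 1.05 to 5.05, adjusted p = 0.0276) under vehicle, and again no overlap under MTX, with 2.4 (adjusted p = 0.139). Tpsab1 (ENSMUSG00000024173, chr17:25343245-25345562, minus strand), the neighbouring tryptase, was far lower, with counts between 2 and 189. It stood at 0.607, 0.157 and 0.185 CPM in flox vehicle, at 1.91, 1.86 and 3 CPM in KO vehicle, at 0.614, 0.954 and 0.125 CPM in flox MTX and at 0.609, 8.19 and 1.14 CPM in KO MTX libraries. Its log2 fold change under vehicle was 2.82 (adjusted p = 0.0543). The chymases and the tryptases are paralogs, and how reads that map to several places were counted is not stated, so reads may be split between Cma1 and Mcpt4 or between Tpsb2 and Tpsab1.

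**Figure D2:**
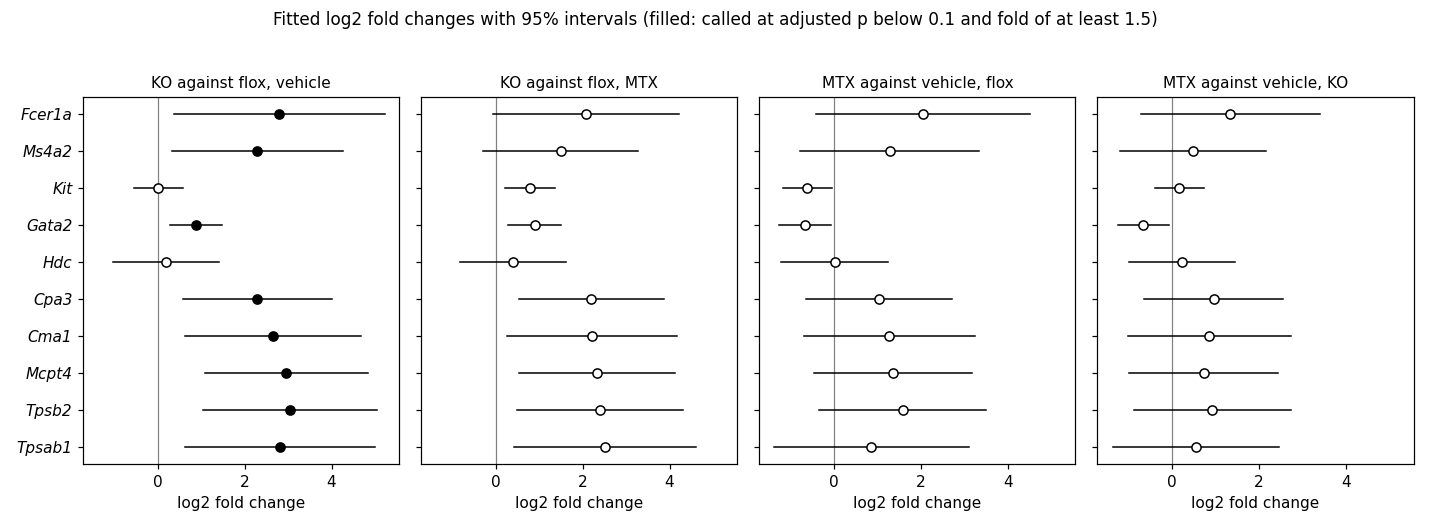
Fitted log2 fold changes of the 10 mast cell genes (x axis) with 95% intervals, in the 4 contrasts between pairs of groups. Filled points passed the test and open points did not. In KO against flox mice under vehicle 8 points are filled, and in the other 3 contrasts all points are open.

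Promoters are shown for the members that held a GATA motif, the letters that Gata2 can bind. RefSeq promoters (GRCm38.p6, 250 bases before to 50 after a start, read 5′ to 3′ on the gene's strand) were found for 8 of the 10 members, all but Tpsb2 and Tpsab1. AGATAA or TGATAA, on either strand, were found in the promoters of Fcer1a, Cpa3, Mcpt4 and Ms4a2, and not in those of Hdc, Kit, Gata2 and Cma1. Of all 32851 promoters 18.6% held them. Capitals mark the matches, which lie 92 bases before the start in Fcer1a, 46 before it in Cpa3, 103 before it in Mcpt4, and 224, 37 and 11 before it in Ms4a2. The windows are chr1:173227180-173227479, chr3:20242132-20242431, chr14:56062261-56062560 and chr19:11623670-11623969, in that order, all on the minus strand. The letters CACGTG or CATGTG, which Mitf can bind, were found once, in Fcer1a, and in 20.4% of all promoters. These motifs were chosen after the counts were seen, and a match is a description of letters, not a site.
Fcer1a: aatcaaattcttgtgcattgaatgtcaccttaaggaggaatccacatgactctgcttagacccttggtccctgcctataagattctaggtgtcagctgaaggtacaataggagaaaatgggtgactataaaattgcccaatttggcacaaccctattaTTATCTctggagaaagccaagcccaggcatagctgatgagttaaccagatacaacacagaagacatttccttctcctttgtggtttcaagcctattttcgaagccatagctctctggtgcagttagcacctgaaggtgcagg
Cpa3: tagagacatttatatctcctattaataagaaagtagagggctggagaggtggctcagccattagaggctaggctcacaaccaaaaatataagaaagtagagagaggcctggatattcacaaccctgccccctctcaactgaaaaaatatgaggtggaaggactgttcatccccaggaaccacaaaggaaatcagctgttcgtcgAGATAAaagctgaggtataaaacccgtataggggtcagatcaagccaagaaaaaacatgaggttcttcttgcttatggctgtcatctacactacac
Mcpt4: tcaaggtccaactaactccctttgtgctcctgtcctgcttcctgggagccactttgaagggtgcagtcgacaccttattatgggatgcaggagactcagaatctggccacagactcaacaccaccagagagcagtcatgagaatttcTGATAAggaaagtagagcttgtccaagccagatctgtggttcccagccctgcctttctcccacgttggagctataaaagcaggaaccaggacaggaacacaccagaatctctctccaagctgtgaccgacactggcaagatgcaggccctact
Ms4a2: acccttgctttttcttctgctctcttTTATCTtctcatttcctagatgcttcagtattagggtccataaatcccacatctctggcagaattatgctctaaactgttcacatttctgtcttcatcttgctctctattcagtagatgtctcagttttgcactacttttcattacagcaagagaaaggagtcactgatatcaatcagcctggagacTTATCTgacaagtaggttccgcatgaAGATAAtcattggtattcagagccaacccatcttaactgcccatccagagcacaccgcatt

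Per kilobase of exon, the chymases, Tpsb2 and Cpa3 led the other members in the KO vehicle group. In KO vehicle libraries Mcpt4 stood at 22.1 ± 6.09 CPM per kilobase (SD, n = 3), Cma1 at 18.7 ± 6.79 and Tpsb2 at 16.1 ± 5.59, whose ranges overlapped. Cpa3 followed at 6.77 ± 3.12, below the range of all 3. Gata2 at 2.5 ± 0.356 and Kit at 1.93 ± 0.279 came next and overlapped narrowly. Fcer1a at 1.33 ± 0.54, Hdc at 1.2 ± 0.435 and Tpsab1 at 1.08 ± 0.306 overlapped with each other, and Fcer1a also with Kit, and Ms4a2 at 0.285 ± 0.133 was the lowest. In flox vehicle libraries the order among the leading genes could not be told: Cma1 stood at 3 ± 2.41, Mcpt4 at 2.83 ± 2, Tpsb2 at 1.95 ± 1.03, Kit at 1.92 ± 0.664, Cpa3 at 1.39 ± 0.612, Gata2 at 1.36 ± 0.377 and Hdc at 1.06 ± 0.196 CPM per kilobase, each overlapping its neighbours. Fcer1a at 0.189, Tpsab1 at 0.151 and Ms4a2 at 0.0572 CPM per kilobase lay below all of these. Kit thus overlapped the chymases, Tpsb2 and Cpa3 in flox vehicle fat, where it lay above Tpsab1, and lay below the 2 chymases, Tpsb2 and Cpa3 in KO vehicle fat.

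Under MTX, none of the 10 members was called between KO and flox mice. Nor was any of the 18702 genes by edgeR, where the smallest adjusted p was 0.104 and 24.5% of genes had an unadjusted p below 0.05. Of the members, 7 had such a p, the median log2 fold change of the 10 was 2.14 against -0.05 over all genes, and all 10 values were above 0. Much of these sizes came from 2 mice, KO MTX replicate 3 and flox MTX replicate 4, singled out for their high and low levels of these genes. Leaving them out lowers the difference by construction and is no test of it. Without them the median was 0.33, with 0.31 for Cpa3, 0.35 for Tpsb2, 0.19 for Cma1, 0.5 for Mcpt4, 0.16 for Tpsab1 and 0.16 for Fcer1a. Kit (0.72) and Gata2 (0.8) kept nearly their size, and none was called. With all libraries DESeq2 called 7 members (Cpa3, Kit, Tpsb2, Cma1, Mcpt4, Gata2 and Tpsab1) and 2769 genes. Kit, Gata2, Tpsb2 and Mcpt4 did not overlap between the genotypes, an order found in 14.7% of all genes tested. The interaction of genotype and MTX was called for none of the members and for 0.989% of all genes, with unadjusted p above 0.05 for each member. Its 95% intervals were wide, from -3.83 to 2.4 for Fcer1a and from -3.27 to 1.97 for Tpsb2, so a smaller or larger difference under MTX than under vehicle was not detectable here. Without the same 2 libraries the median over the members went from -0.37 to -2.23, a shift that their choice favours, again with none called. DESeq2 called 1248 genes for the interaction and also none of the members.

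MTX itself gave no called member in either genotype. In flox mice, where 24.2% of all genes were called and 16.1% were called lower, the 5 proteases had values from 0.86 (Tpsab1) to 1.58 (Tpsb2) on the log2 scale, with adjusted p between 0.229 and 0.58. Kit had -0.61 (adjusted p = 0.121). DESeq2 called Gata2 alone, with -0.67 (adjusted p = 0.0754), and 2 members, Kit and Gata2, had an unadjusted p below 0.05, as had 34.2% of all genes. Without flox MTX replicate 4, Tpsb2 had 2.08 (adjusted p = 0.0939) and Fcer1a 2.61 (adjusted p = 0.0709), both called. Without KO MTX replicate 3 as well, 5 members were called, with 1.38 for Cpa3, 1.75 for Cma1, 1.85 for Mcpt4, 2.08 for Tpsb2 and 2.61 for Fcer1a. Leaving out the flox MTX library lowest in these genes raises this contrast by construction, so these calls are no support. In KO mice no gene was called by edgeR, 7.97% had an unadjusted p below 0.05 (of the members Gata2), and DESeq2 called 281 genes and none of the members. There the proteases had values from 0.55 (Tpsab1) to 0.96 (Cpa3), and 1 mouse decided their direction. Without KO MTX replicate 3 the values were -0.61 for Cpa3, -0.71 for Cma1, -0.63 for Mcpt4, -0.64 for Tpsb2 and -1.37 for Tpsab1, with an adjusted p of 1 for each.

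In KO MTX replicate 3 the message of the proteases was 5.73 to 9.39 times the mean of the other KO MTX libraries. The excess was 5.73-fold for Mcpt4, 6.88-fold for Cpa3, 6.9-fold for Tpsb2, 6.91-fold for Cma1 and 9.39-fold for Tpsab1. For Fcer1a it was 5.86-fold, for Hdc 3.89-fold and for Ms4a2 2.95-fold. Kit was only 1.28-fold and Gata2 0.898-fold of that mean. The members thus split within this mouse into proteases and Fcer1a, which were far above the group, and Kit and Gata2, which were not. In flox MTX replicate 4 the same genes were at the other end, with Tpsb2 at 1.5 CPM against 10.8 and 15.4 CPM in its group. Its Kit, 12 CPM, lay between those of the other 2 flox MTX libraries. In KO MTX replicate 3 the 15 macrophage markers summed to 12700 CPM, the highest of all libraries, and the adipocyte markers to 11000 CPM, the lowest. In flox MTX replicate 4 the macrophage markers summed to 1060 CPM, against 3460 and 6450 CPM in its group, and the adipocyte markers to 56400 CPM, the highest. Their part in the levels of the mast cell genes was not tested.

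**Figure D3:**
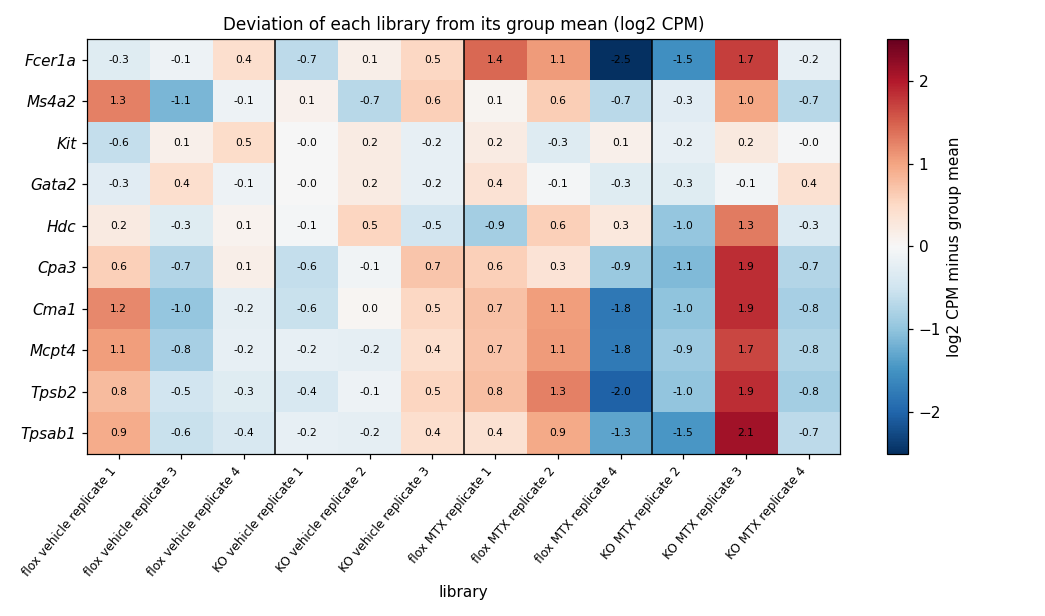
Deviation of each library from its group mean in log2 CPM (prior count 2), for the 10 mast cell genes (rows) in the 12 libraries (columns), with red above and blue below the mean. The proteases and Fcer1a share the pattern of high and low libraries, with KO MTX replicate 3 high and flox MTX replicate 4 low, and the rows of Kit and Gata2 are nearly blank.

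The chymases and Tpsb2 kept within a narrow proportion to each other from mouse to mouse. Among pairs picked after their values were seen, the count of Mcpt4 was 0.903 to 1.58 times that of Cma1 in the 12 libraries (median 1.04), while Cma1 itself ranged 66.1-fold, from 1.3 to 85.8 CPM. Tpsb2 was 0.799 to 1.55 times Cma1, and Cpa3 was 0.408 to 1.23 times Cma1, with the highest value in flox MTX replicate 4. With group means subtracted, so that the differences between groups were set aside, each member was set against the mean of the other members over the 12 libraries. Pearson's r was 0.95 for Tpsab1, 0.938 for Tpsb2, 0.929 for Cpa3, 0.925 for Cma1, 0.92 for Mcpt4 and 0.883 for Fcer1a. It was 0.597 for Ms4a2, 0.46 for Hdc, -0.013 for Gata2 and -0.078 for Kit, and the median over all 18702 genes was 0.01. Without the 2 libraries farthest from the median, which were KO MTX replicate 3 and flox MTX replicate 4, r stayed between 0.788 and 0.849 for the proteases and went to 0.343 for Fcer1a, 0.517 for Ms4a2, 0.172 for Hdc, -0.445 for Gata2 and -0.594 for Kit. These values describe 12 libraries that share depth, scaling and cell mixture, and carry no test.

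The genes outside the members whose pattern was most like theirs included 3 receptors of the Mrgpr family. Mrgprb2, the mast cell receptor for cationic peptides and drugs, had r = 0.987, which was the highest among all genes outside the list, followed by Mrgprx2 with 0.98, and Mrgprb1 ranked 5 with 0.938. Without the same 2 libraries their values were 0.881, 0.86 and 0.704. Mrgprb2 counts were 7, 4 and 5 in flox vehicle, 12, 18 and 23 in KO vehicle, 9, 7 and 0 in flox MTX and 9, 90 and 16 in KO MTX libraries, so these receptors were scarce and again highest in KO MTX replicate 3. Mrgprb1 was higher in KO mice under vehicle (log2 fold change 2.18, adjusted p = 0.0774), and Mrgprb2 had 1.8 (adjusted p = 0.173). The 3 receptors are near relatives, and reads may be shared among them. The other genes of the leading 10 were Pcdhb9 (0.963), Gm23887 (0.954), Napb (0.925), 2210412B16Rik (0.913), Igkv12-89 (0.911), Gm11843 (0.909) and Cdon (0.906). In all, 17 genes had r above 0.9, members included.

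**Figure D4:**
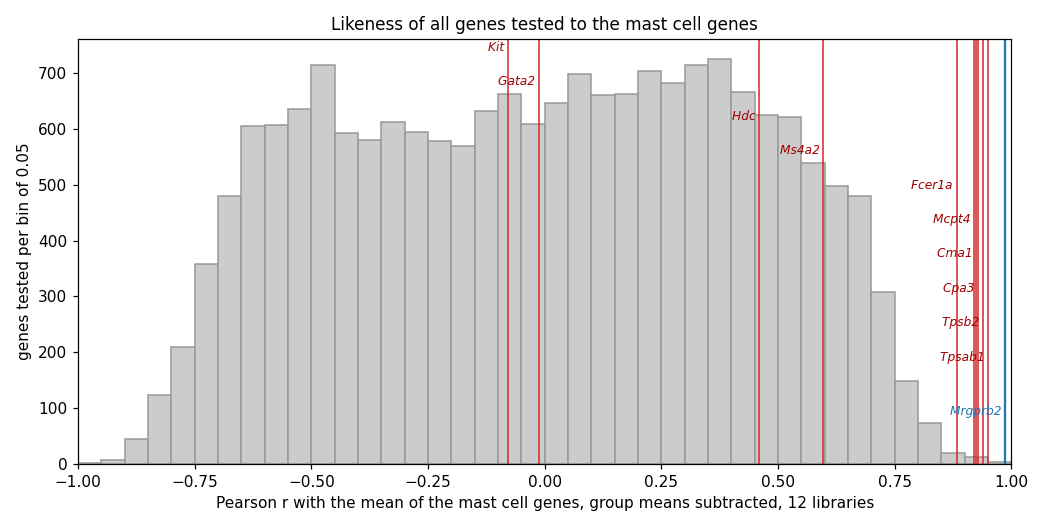
Number of genes tested (y axis) by Pearson r with the mean of the mast cell genes over 12 libraries, with group means subtracted (x axis). Red lines mark the 10 members, each against the mean of the others, and the blue line marks Mrgprb2. The 5 proteases and Fcer1a lie at the right edge, from 0.883 to 0.95, and Kit and Gata2 lie near the middle, at -0.078 and -0.013.

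Other genes of mast cell biology were counted by lists. In KO mice under vehicle, 13.9% of all genes tested were called higher and 17.8% lower. Of 13 further granule genes, 7 were tested, and in this contrast none was lower and 1 was higher, near the share of all genes. That was Cd63, a lysosome and granule membrane protein of many cells, with 704 ± 245 against 268 ± 21.4 CPM (log2 fold change 1.39, adjusted p = 0.00958). Srgn, the proteoglycan core that holds proteases in the granule, had -0.37 (adjusted p = 0.607), and Slc18a2, the vesicle transporter of histamine and serotonin, had 0.61 (adjusted p = 0.321). Rab27b, a GTPase of granule release, was not called under vehicle (-0.66, adjusted p = 0.158). The proteases of mucosal mast cells Mcpt1 and Mcpt2 had 0 counts in every library, which allows up to 3 counts in each.
Of 10 further receptors, 6 were higher in KO mice under vehicle, against 13.9% of all genes tested, and none was lower. They included Il1rl1, the receptor of IL-33 (1.23, adjusted p = 0.0421), and Enpp3, a surface enzyme of mast cells and basophils (1.19, adjusted p = 0.0119). Adora3, an adenosine receptor of mast cells, had 0.2 under vehicle (adjusted p = 0.753) and 1.55 under MTX (adjusted p = 0.104), where its KO libraries lay above the flox libraries.

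Of the 17 genes of FceRI and Kit signalling, 11 were higher in KO mice under vehicle and 10 with MTX in flox mice. None was lower in either. Of all genes tested, 13.9% were called higher in the first contrast and 8.09% in the second. Inpp5d, the phosphatase SHIP1 that restrains FceRI signals, had log2 fold changes of 2.42 (adjusted p = 0.00335) and 1.74 (adjusted p = 0.0143). The kinases Lyn (1.3, adjusted p = 0.00478) and Fyn (1.31, adjusted p = 0.00508) were higher in KO mice under vehicle. These genes act in many leukocytes and not in mast cells alone. Of the 9 mast cell transcription factors tested, 6 were higher and 1 lower in KO mice under vehicle. There 13.9% of all genes tested were called higher and 17.8% lower. Spi1 rose most (3.09, adjusted p = 0.00413). Mitf stood at 39.4 ± 9.28 against 12.2 ± 3.75 CPM (1.69, adjusted p = 0.00947), and Lmo2 (2.36, adjusted p = 0.0035) and Tal1 (1.27, adjusted p = 0.00513), which bind DNA with GATA factors, were higher as well. Stat5a, which carries signals of Kit and cytokine receptors, was lower (-1.28, adjusted p = 0.0034). These factors are not limited to mast cells either. In the same contrast 15 of 15 macrophage and 8 of 10 endothelial markers were called higher, and their part was not tested.

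Of the 10 growth factors 6 were tested, and Kitl and Tgfb1 (1.33, adjusted p = 0.0082) were higher in KO mice under vehicle. Beside this and the next 2 lists, 13.9% of all genes tested were called higher in that contrast and 17.8% lower. Il33, an alarmin that activates mast cells, was not called there (0.82, adjusted p = 0.233) and rose with MTX in flox mice, from 7.19 ± 2.68 to 20.5 ± 13.8 CPM (1.51, adjusted p = 0.0559). Of the 8 eicosanoid enzymes, 3 were higher and 1 lower in KO mice under vehicle. Hpgds, the synthase of prostaglandin D2 in mast cells and macrophages, rose most, from 9.77 ± 3.52 to 95.6 ± 42.1 CPM (3.29, adjusted p = 0.00713), Alox5ap by 2.12 (adjusted p = 0.00853) and Alox5 by 0.84 (adjusted p = 0.0365), while Ptgs1 fell by 1.55 (adjusted p = 0.0175). Of the 6 histamine receptor and breakdown genes tested, 1 was higher, the receptor Hrh1 (1.2, adjusted p = 0.0405), and 2 were lower. The lower ones were Hrh3, at 15.1, 46.8 and 1.66 CPM in flox vehicle libraries and at most 0.0504 CPM in KO vehicle libraries, and Aoc1, the extracellular histamine oxidase (-1.55, adjusted p = 0.0611). Hrh3 was highest in flox vehicle replicate 3, the library with the most epididymis transcript, and the part of that tissue was not tested.

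Markers of several other cell types also differed between the groups, not all in the same way as the members. Macrophage markers (15 genes, led by Lyz2) summed to 648 to 1250 CPM in flox vehicle, 5160 to 9430 CPM in KO vehicle, 1060 to 6450 CPM in flox MTX and 7550 to 12700 CPM in KO MTX libraries. The members summed to 38.9 to 45.8, 100 to 149, 30.3 to 70.3 and 77.1 to 403 CPM in the same groups, a far smaller amount of message. Endothelial markers (10 genes) summed to 363 to 510, 822 to 1170, 337 to 719 and 582 to 906 CPM in the same order of groups. Basophils also express Fcer1a, Ms4a2 and Hdc. Of their proteases, Mcpt8 was at 0 to 0.59 CPM and under 3 counts in 10 of 12 libraries, and Prss34 at 0 to 1.99 CPM and under 3 counts in 3 libraries. The 6 basophil markers, led by Il3ra, which other cells share, summed to 16.3 to 21.4 CPM in flox vehicle and 55 to 74.7 CPM in KO vehicle libraries. Of the 4 of them that were tested, 2 were higher in KO mice under vehicle, Il3ra and Ccr3, an eotaxin receptor that eosinophils share (3.86, adjusted p = 0.0137). Eosinophil markers (8 genes) summed to 2.83 to 25.5 CPM over all libraries, with overlap between the groups. Of the 5 of them that were tested, 2 were higher in KO mice under vehicle, Ccr3 among them, and 0 were lower. Stromal progenitor markers (10 genes, led by Col3a1) summed to 1500 to 2840, 5790 to 8960, 2620 to 5190 and 5990 to 7270 CPM in the 4 groups, and 9 of 10 were called higher and 1 lower in KO mice under vehicle. Of the 12 adipocyte markers 3 were called lower in KO mice under vehicle and 10 when averaged over treatments (median -1.02). None of 7 T cell and 6 B cell markers was called in KO mice under vehicle, and of 7 neutrophil markers tested 2 were higher and 1 lower. In that contrast 13.9% of all genes tested were called higher and 17.8% lower. All 15 macrophage markers were called higher in KO mice under vehicle. With MTX in flox mice 13 of 15 were called higher, against 8.09% of all genes tested. No member was called with MTX in flox mice, though 8 of 10 had values above 0 (median log2 fold change 1.16). The part of these cells in the results was not tested.

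**Figure D5:**
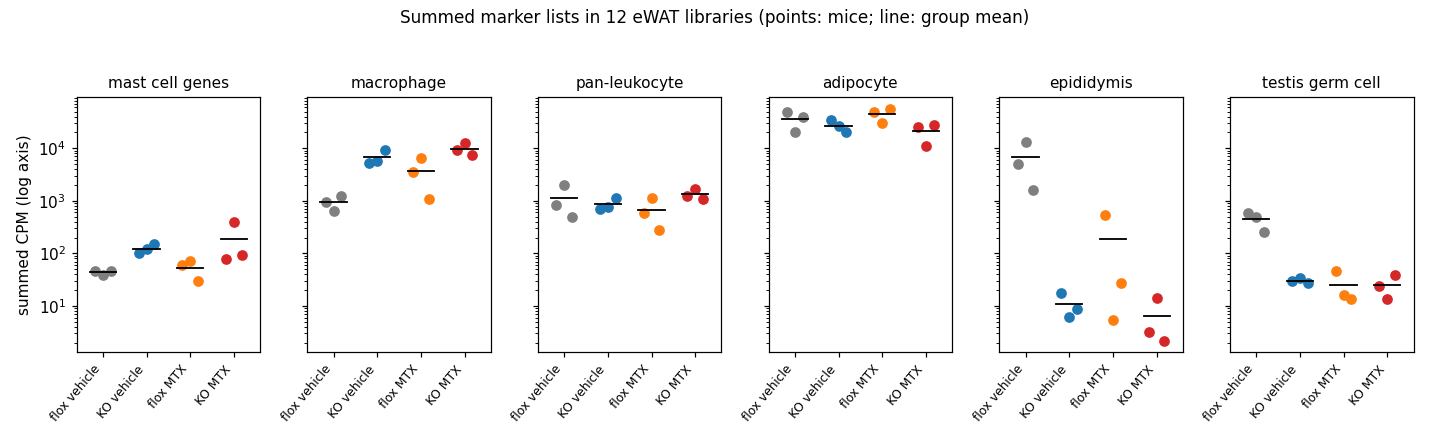
Summed CPM (log axis) of the mast cell genes and of 5 marker lists in the 12 libraries, by group, with points for mice and black lines for group means. The mast cell and macrophage sums are higher in KO vehicle than in flox vehicle libraries, epididymis and testis transcripts are highest in flox vehicle libraries, and the adipocyte sums overlap.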

How the data were processed

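RNA was sequenced from the eWAT of 12 mice (3 per group, 1 library each). The submitters' processing notes name Trimmomatic 0.36, STAR 2.5.2b, featureCounts of Subread 1.5.2 and the build GRCm38, and the deposited values are the authors' raw counts per gene, with no normalization. Strand and multimapping options are not given in the sources used here. The labels name polyA RNA and the methods ribosomal depletion. Libraries held 19495310 to 23976469 counts. Symbols covered 99.3% of the 49315 genes, and genes without one held 0.0688% of the counts.

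All genes were tested with edgeR 4.0.16 (R 4.3.3): filterByExpr by group (18702 genes), TMM factors, 1 coefficient per group over the 12 libraries (8 residual degrees of freedom) and the quasi-likelihood F-test, in 7 contrasts. A call needed a Benjamini-Hochberg adjusted p under 0.1 and a 1.5-fold difference. SE and 95% intervals came from the F statistic. CPM used TMM factors over tested genes, and CPM per kilobase the exon union of GENCODE M21 (GRCm38).

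The members, gene lists and naming rules were chosen with earlier results of these data known. By rule the text names the 10 members, Fcer1g, Kitl, Il33, Mrgprb2, Mcpt8, Adora3, Slc18a2, Hpgds, Srgn and Mitf, up to 3 more called genes with the lowest adjusted p from each of 7 lists, the 10 genes most like the members (Pearson r of group-centred log2 CPM, prior count 2), and each marker list's most abundant gene. Mcpt1 and Mcpt2, the ratio pairs, the promoter motifs and the 3′ UTR search were picked after values were seen.

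Alternatives were other scalings (RLE, library size), DESeq2 1.42.0, other filters and limits for a call, the replicate number as a block, a fit of the compared libraries alone, removal of epididymis and testis genes, and omission of single libraries. The code was first tested on simulated counts. Within groups every pair of libraries differed beyond sampling noise (chi-square per degree of freedom of at least 14.1).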

Additional observations from a re-analysis of the deposited data

How the results depend on the processing

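The count of called members held within 1.5 times in all contrasts with RLE factors, without a filter, without a fold limit and with epididymis and testis genes removed, and in the 4 contrasts between pairs of groups with the compared libraries fitted alone (9 members tested under vehicle). Between KO and flox mice under vehicle, 8 members were called, 5 of the 7 testable under a minimum of 10 counts per library, and 3 to 8 with single libraries omitted. Averaged over treatments the count was 8, against 5 of those 7. Under MTX it was 0, against 7 by DESeq2, 2 of those 7 with at least 10 counts, and 0 to 4 with single libraries omitted (4 upon omission of flox MTX replicate 2 and 1 upon that of flox vehicle replicate 3). For MTX in flox mice it was 0, against 2 with library size as the only scaling (Kit and Gata2), 1 by DESeq2, 0 to 2 with single libraries omitted (2 upon omission of flox MTX replicate 4, and 1 upon that of replicate 1 of either flox group), and 5 without KO MTX replicate 3 and flox MTX replicate 4 together (Cpa3, Tpsb2, Cma1, Mcpt4 and Fcer1a), a choice made after seeing the data. For MTX averaged over genotypes it was 1, against 0 at a log2 limit of 1.5, 2 by DESeq2 and 0 to 3 with single libraries omitted (3 upon omission of flox MTX replicate 4). Of all genes, 5924 were called under vehicle, against 4011 with at least 10 counts and 4640 to 6828 with single libraries omitted. Under MTX 0 were, against 2769 by DESeq2, 1491 with at least 10 counts and 4064 upon omission of flox MTX replicate 2. For MTX in flox mice 4528 were, against 4373 with library size, 4818 by DESeq2 and 2219 to 5995 with single omissions. For MTX averaged 2719 were, against 3311 by DESeq2 and 1375 to 3732 with single omissions. The causes were not tested. What the replicate numbers stand for is not given in the sources used here. Residuals of the 12 same-numbered pairs had a median correlation of 0.035 (-0.273 to 0.254), against 0.011 for 42 other pairs. So few pairs cannot show whether equal numbers mark mice that belong together. With the replicate block 3 members were called under vehicle (Tpsb2, Mcpt4 and Gata2), 0 for MTX averaged over genotypes, and 7 for genotype averaged over treatments, where Fcer1a was lost (2.06, adjusted p = 0.106). Values that changed sign were never called in either fit. Kit between genotypes under vehicle went from 0.01 to -0.01 with RLE factors, DESeq2 or at least 10 counts, and lay between -0.22 and 0.28 with single libraries omitted. Hdc for MTX in flox mice went from 0.02 to -0.16 with library size, -0.03 with at least 10 counts and -0.01 with the replicate block. For the interaction, Cpa3 went from -0.08 to 0.1 with library size, and Gata2 from 0.01 to -0.03 without a filter and -0.04 with the block. With single libraries omitted, Hdc ranged from -0.12 to 0.41 between genotypes under vehicle, -0.58 to 0.77 under MTX, -0.3 to 0.34 for MTX in flox mice, -0.75 to 0.6 in KO mice, -0.77 to 0.58 for the interaction, -0.19 to 0.48 for genotype averaged and -0.36 to 0.32 for MTX averaged. For MTX in KO mice the ranges were -0.61 to 1.4 for Cpa3, -0.64 to 1.36 for Tpsb2, -0.71 to 1.28 for Cma1, -0.63 to 1.13 for Mcpt4, -0.24 to 0.86 for Ms4a2, -0.05 to 1.82 for Fcer1a and -1.37 to 1.05 for Tpsab1. For the interaction they were -1.66 to 0.34 for Cpa3, -1.99 to 0.02 for Cma1, -2.24 to 0.26 for Tpsab1 and -0.24 to 0.2 for Gata2, and for MTX averaged -0.25 to 1.14 for Tpsab1. Without both libraries named above, the values for MTX in KO mice were -0.61 for Cpa3, -0.64 for Tpsb2, -0.72 for Cma1, -0.63 for Mcpt4, -0.24 for Ms4a2, -0.05 for Fcer1a, -0.76 for Hdc and -1.37 for Tpsab1. Hdc then had -0.5 between genotypes under MTX, -0.05 for MTX in flox mice, -0.71 for the interaction, -0.14 for genotype averaged and -0.4 for MTX averaged, for the interaction Gata2 had -0.1, Cpa3 -1.99, Cma1 -2.47 and Tpsab1 -2.68, and Tpsab1 had -0.03 for MTX averaged. With 3 mice per group and counts under 10 in several libraries of Fcer1a, Ms4a2 and Tpsab1, intervals spanned several log2 units.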
